A study of Mus musculus with 6 samples.

Results

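The mitochondrial solute carrier family 25 comprises the transporters that move nucleotides, phosphate, carboxylates, amino acids and cofactors across the inner mitochondrial membrane. Its members were taken by gene symbol, as every name formed of Slc25a and a number. This rule found 47 of the 24946 named genes in the files, and 42 of them were high enough to be tested among 14859 genes. The genes were followed in viral-TRAP, in which a GFP-tagged ribosomal protein is made in cells with Cre recombinase, so that ribosomes of those cells can be pulled down with an anti-EGFP antibody together with the mRNA on them. The mice were Neurotensin-Cre mice of the C57Bl6J strain whose lateral septum had received AAV5-Introvert-NBL10, and tissue was taken 3 or 4 weeks later. In the study's methods the virus is instead named AAV5-Introvert-GFPL10a. The study's methods give an age range of adult mice, of both sexes, for all its experiments together and none for these pools. Input (n = 3) was RNA of the dissected tissue kept before the pulldown, IP (n = 3) was RNA of the pulled-down polysomes, and each of the 3 numbered pools of 4 to 6 mice gave 1 library of each kind. Input and IP thus shared mice, Cre driver and virus, and no library came from mice without Cre or without virus.

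Most of these carriers are small membrane proteins that share a 3-fold repeated fold and exchange a substrate on the matrix side for another on the outer side. They link oxidative phosphorylation to the cytosol, since ADP and phosphate must enter the matrix and ATP must leave it. In neurons they also serve the malate-aspartate shuttle, glutamate metabolism and the handling of calcium, iron and glutathione. A few members sit elsewhere, Slc25a17 in peroxisomes and Slc25a46 in the outer mitochondrial membrane.

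The value of a gene in a library was a read count divided by the authors' DESeq2 factors, called a normalized count here. Normalized counts added up to 16828024 to 17129150 in the Input libraries and to 22781827 to 24958423 in the IP libraries, which stood for roughly 9318943 to 9809399 reads and 9894817 to 11015281 reads, judged from the value that 1 read took in many low genes. Log2 fold changes compare IP with Input on the log2(value + 1) scale, with their standard errors (SE), and adjusted p is limma's p with Benjamini-Hochberg adjustment over all genes tested. A gene is said to have risen or fallen in IP when its adjusted p was under 0.05. The replicates were separate pools of mice, so p-values measure the spread between pools. In tissue pools, fewer cells of a type and less RNA per cell cannot be told apart. A higher share of an RNA in the tagged cells and a higher share of it on ribosomes cannot be told apart either, because Input was not selected for ribosomes.

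Cell type markers differed strongly between the fractions. Of 16 neuron markers, 11 rose in IP and 2 fell on the deposited scale. Their summed level went from 161893 to 187344 in Input to 264294 to 287737 in IP. Library totals were also higher in IP. Scaling on the neuron markers put the median of all genes at -0.55, close to the -0.54 of libraries divided by their totals. The rise of the neuron markers as a set thus depended on the scale. All 3 GABAergic markers rose (Gad1, Gad2 and Slc32a1), which are the markers of the main neuron class of the lateral septum. All 8 astrocyte markers fell, with a summed level of 39008 to 46481 in Input and 9006 to 13665 in IP, and none was at 0 in a library. All 8 oligodendrocyte markers fell as well, from 103100 to 147728 to 14269 to 22619, and all 7 microglia markers, from 2794 to 4067 to 424 to 743. Of 6 endothelial and mural markers 3 fell, from a sum of 254 to 314 to one of 71 to 122. The part of these cell types in the changes of single carriers was not tested.

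As a family the carriers were split between the fractions. In IP, 15 of the 42 tested members rose (35.7%), where 31.4% of all genes tested did, and 13 fell (31%), where 32.2% of all genes did. The remaining 14 did not pass the test. The members had a median log2 fold change of -0.05, and all genes one of -0.06, so neither the counts nor the median set the family as a whole apart from the rest of the transcriptome. A change of more than 2-fold was found for 2 members on the higher side (4.76%, all genes 12.6%) and for 7 on the lower side (16.7%, all genes 17.2%). Every IP library lay above every Input library in 16 members (all genes 34.2%), and below in 13 (all genes 35.4%). Slc25a45 fell although its groups overlapped, and Slc25a28 and Slc25a40 did not pass the test although theirs did not overlap. Leaving out the IP library of pool 2, or all of pool 2, raised the members over 2-fold higher from 2 to 5 (all genes 14% and 13.8%), and leaving out the Input library of pool 2 to 4 (all genes 12.7%). Without pool 2 the members that fell numbered 8 (all genes 26.9%), and without the IP library of pool 1 those over 2-fold lower numbered 4 (all genes 16.1%). Dividing each library by its own total lowered the median of all genes to -0.54 and that of the members to -0.53, and 6 members then rose (all genes 17.3%) and 22 fell (all genes 53.1%). Higher members thus made up 53.6% of the members called on the deposited scale and 21.4% on that scale. The 6 were Slc25a3, Slc25a4, Slc25a5, Slc25a14, Slc25a17 and Slc25a38. These 6, together with the lower members Slc25a15, Slc25a18, Slc25a23, Slc25a34, Slc25a36 and Slc25a37, kept their call in each of the alternatives that could test them, though often with smaller or larger values.

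**Figure D1:**
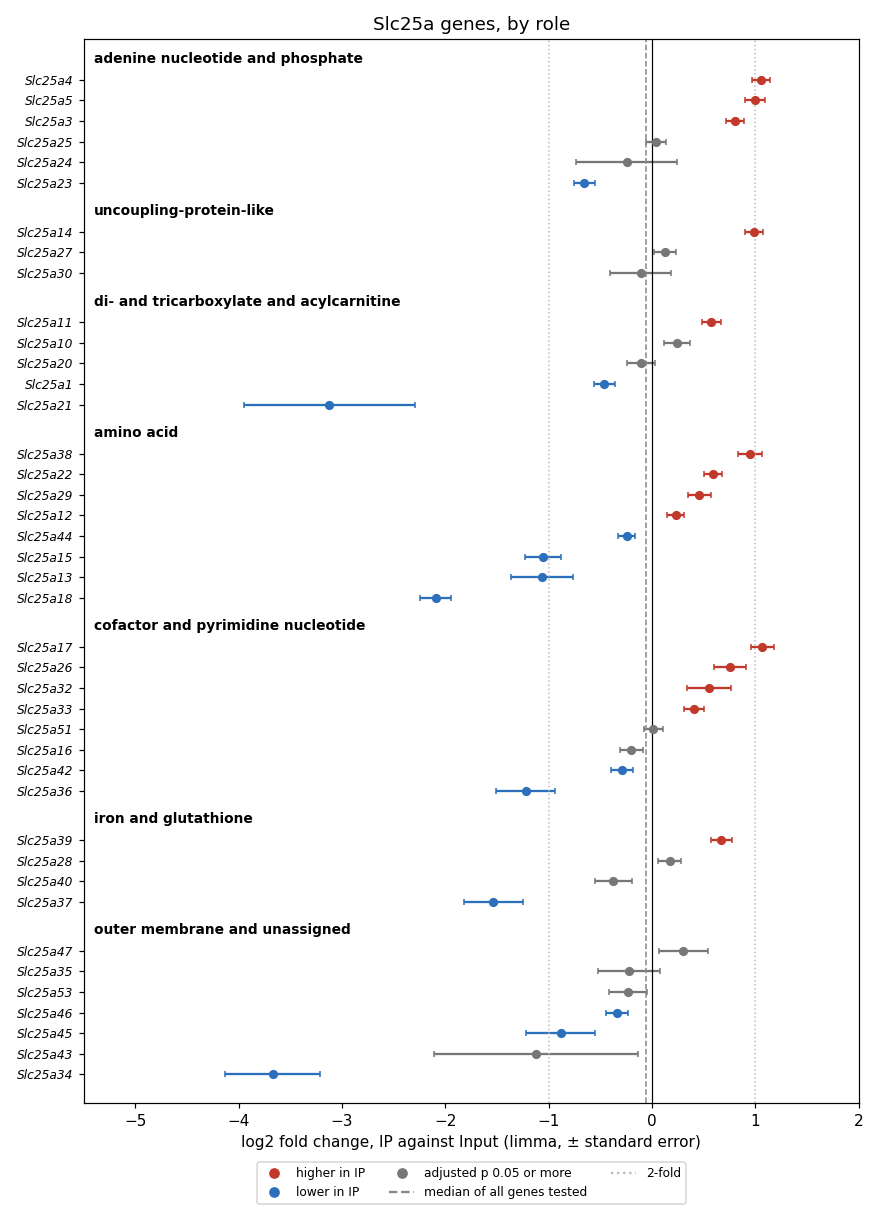
Log2 fold change of IP against Input (x axis, limma on log2(value + 1), bars ± SE) for the members reported, grouped by role. Red members rose in IP and blue ones fell on the deposited scale. Of all 42 tested members 15 rose (all genes 31.4%) and 13 fell (all genes 32.2%). With each library divided by its total, 6 rose (all genes 17.3%) and 22 fell (all genes 53.1%). Every amino acid carrier is coloured, while the outer membrane and unassigned carriers hold no red point. The dashed line is the median of all genes tested.

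As context for the largest changes, the 250 bases before the RefSeq start of each gene were searched on both strands for 4 short motifs. Of the 47 members 36 had a promoter in the RefSeq table used (GRCm38.p6), and the first start listed for each gene was taken. The core of ETS-factor sites (CCGGAAG, or CTTCCGG on the other strand) was found in 6 of the 36 and in 7.05% of all 27025 promoters of this length. Of these 6, Slc25a3, Slc25a4, Slc25a17 and Slc25a38 rose in IP (all genes 31.4%), Slc25a20 did not pass the test and Slc25a54 was at 0 in every library. Whether genes with the core rose more often than other genes was not tested. The core of NRF-1 sites (GCGCA and GCGC with any base between them, or on the other strand GCGC and TGCGC) was found in Slc25a3 and Slc25a31 and in 3.86% of all promoters. GC boxes (GGGCGG, or CCGCCC) were found in 24 members and 32.9% of all promoters, and a TATA box (TATAAA, or TTTATA) in Slc25a18 alone of the members and in 13% of all promoters. The stretches below lie upstream of every annotated exon and read 5′ to 3′ on the gene's strand. Slc25a3, Slc25a17 and Slc25a38 are shown as members that rose with an ETS core, and Slc25a5 as a member that rose with neither core. Slc25a34 is shown as the member with the lowest log2 fold change. Slc25a20, which holds the ETS core and did not pass, is not shown. Capitals mark matches to the ETS and NRF-1 cores.
Slc25a3, chr10:91124060-91124217, minus strand: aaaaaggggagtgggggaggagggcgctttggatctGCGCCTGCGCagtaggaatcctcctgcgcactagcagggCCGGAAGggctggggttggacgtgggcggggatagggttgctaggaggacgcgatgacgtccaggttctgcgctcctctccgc
Slc25a17, chr15:81360813-81361015, minus strand: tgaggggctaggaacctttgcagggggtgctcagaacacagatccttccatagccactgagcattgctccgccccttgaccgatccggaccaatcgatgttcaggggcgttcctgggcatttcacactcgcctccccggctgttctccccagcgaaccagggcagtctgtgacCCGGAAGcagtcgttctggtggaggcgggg
Slc25a38, chr9:120110132-120110373, plus strand: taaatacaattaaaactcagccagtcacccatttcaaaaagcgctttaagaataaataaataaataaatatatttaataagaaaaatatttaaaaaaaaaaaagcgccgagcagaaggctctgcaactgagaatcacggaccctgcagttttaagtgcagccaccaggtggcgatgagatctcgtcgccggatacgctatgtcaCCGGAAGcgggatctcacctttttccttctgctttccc
Slc25a5, chrX:36795347-36795596, plus strand: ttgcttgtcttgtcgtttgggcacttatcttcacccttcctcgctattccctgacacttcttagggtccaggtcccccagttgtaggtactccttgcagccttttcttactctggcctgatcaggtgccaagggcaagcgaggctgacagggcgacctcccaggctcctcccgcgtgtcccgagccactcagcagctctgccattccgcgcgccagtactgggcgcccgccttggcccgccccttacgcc
Slc25a34, chr4:141623835-141624084, minus strand: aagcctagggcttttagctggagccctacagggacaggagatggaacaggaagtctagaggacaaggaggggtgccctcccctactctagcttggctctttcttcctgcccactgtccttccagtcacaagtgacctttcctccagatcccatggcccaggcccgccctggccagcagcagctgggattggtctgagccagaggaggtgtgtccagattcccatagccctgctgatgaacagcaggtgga
Counted from the RefSeq start, with the base before it as -1, the ETS core lay at -175 to -169 in Slc25a3, at -77 to -71 in Slc25a17 and at -46 to -40 in Slc25a38, and the NRF-1 core of Slc25a3 at -214 to -205. A match is a description of the letters and not of binding.

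The carriers of adenine nucleotides and phosphate contained the most abundant members, and these rose in IP. Slc25a4, the ADP/ATP translocase 1 (mm10 chr8:46206797-46211284, minus strand), had 26769, 26871 and 26584 normalized counts in the Input libraries of pools 1 to 3 and 60266, 51689.7 and 55417 in IP. All IP libraries stood above all Input libraries, and the log2 fold change was 1.06 (SE 0.09, adjusted p 5.06e-07), or 0.58 with libraries divided by their totals. Slc25a5, the ADP/ATP translocase 2 (chrX:36795651-36798807, plus strand), had 12005, 13279 and 13365 in Input and 27969, 22534 and 26706 in IP. It rose by 0.99 (SE 0.10, adjusted p 2.05e-06), and by 0.22 with the trend of value on transcript length removed from each library. Of the 50-base windows of its transcripts, 46.6% also occur in other annotated genes such as Gm5560 and Gm5529, whose names are not among those in the files, so its count is uncertain. Slc25a3, the phosphate carrier that supplies ATP synthase (chr10:91116574-91124059, minus strand), had 13786, 13672 and 13567 in Input and 25632, 22048 and 24039 in IP. It rose by 0.80 (SE 0.08, adjusted p 3.78e-06), and by 0.28 with the length trend removed or 0.32 with libraries divided by their totals. In each of these genes pool 2 had the lowest IP library, which still lay far above all Input libraries.

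The calcium-regulated ATP-Mg/phosphate carriers, which adjust the size of the adenine nucleotide pool in the matrix, did not share this pattern. Slc25a23 had 5027, 4804 and 4152 normalized counts in Input and 2764, 3231 and 2874 in IP. It fell by 0.66 on the log2 scale (SE 0.10, adjusted p 8.32e-05), with no overlap between the groups, and by 1.14 with libraries divided by their totals. Slc25a25 had 1817, 1926 and 2002 in Input and 1782, 2073 and 2049 in IP, groups that overlapped almost wholly, and its log2 fold change was 0.04 (95% interval -0.17 to 0.24). Slc25a25 passed the test in opposite directions under the alternatives, at -0.45 with libraries divided by their totals and at 0.29 with the length trend removed. Slc25a24 was low, with 25.4, 14.6 and 31.3 in Input and 13.8, 27.1 and 18.2 in IP. Its log2 fold change of -0.25 had an SE of 0.49 and an interval of -1.31 to 0.82, and a difference of that size was not detectable at this depth. Among all adenine nucleotide and phosphate carriers, 3 of 6 tested members rose (all genes 31.4%), 1 fell (all genes 32.2%) and 2 did not pass the test.

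**Figure D2:**
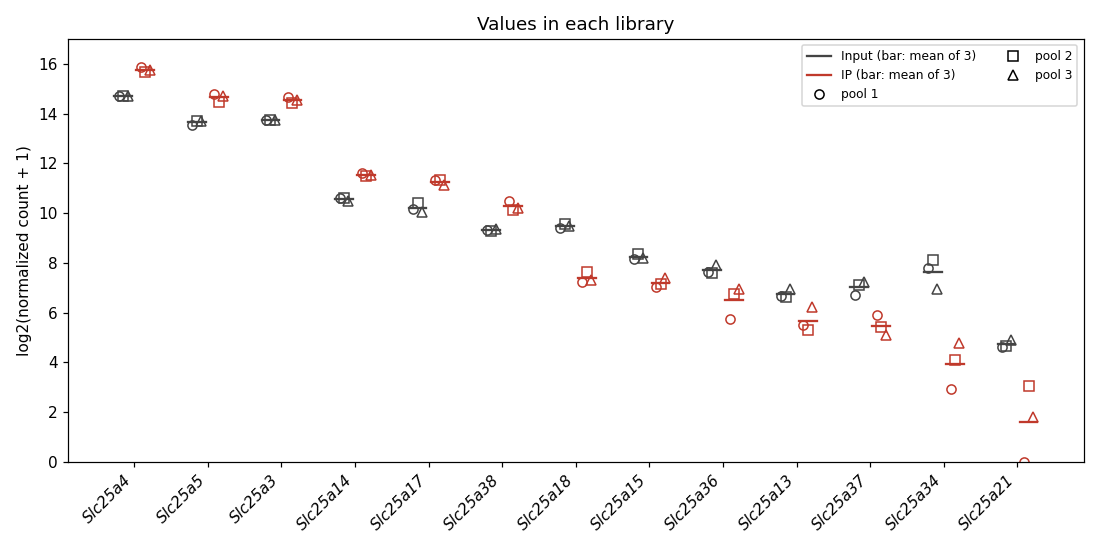
Values of 13 members in each library as log2(normalized count + 1) (y axis), with Input in grey and IP in red, symbols for the pools and bars for the mean of 3. The 3 IP libraries lie above the 3 Input libraries in the 6 members on the left (all genes 34.2%) and below them in the 7 on the right (all genes 35.4%). The 13 were chosen from members that had passed the test, so their separation is no result of its own. Slc25a21 passed the filter on low values through its Input libraries alone and so had to differ. The IP libraries of Slc25a34 and Slc25a21 are spread the most.

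Among the uncoupling-protein-like carriers of the brain, Slc25a14 alone of 3 rose (all genes 31.4%). Slc25a14, also known as brain mitochondrial carrier protein 1 (chrX:48623413-48662294, plus strand), had 1534, 1545 and 1432 normalized counts in Input and 3151, 2882 and 2929 in IP. Its libraries were tightly grouped in both fractions, and its log2 fold change was 0.99 (SE 0.09, adjusted p 8.61e-07), or 0.51 with libraries divided by their totals and 0.58 with the length trend removed. Slc25a27, known as uncoupling protein 4, had 1012, 950.4 and 846 in Input and 1071, 967 and 1014 in IP. These ranges overlapped, and the log2 fold change was 0.12 (95% interval -0.11 to 0.35). Slc25a27 passed on the lower side with libraries divided by their totals or scaled on the neuron markers. Slc25a30, the closest relative of Slc25a14, stood at 50.2, 62.3 and 52.0 in Input and 48.0, 46.0 and 58.5 in IP. Its value was -0.11 (interval -0.75 to 0.53), and per kb of transcript its level was 15.3 ± 1.82 in Input and 14.2 ± 1.86 in IP, against 833 ± 34.5 and 1655 ± 79.8 for Slc25a14 (SD, n = 3).

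The carriers of di- and tricarboxylates and of acylcarnitine moved in opposite directions, with 1 of 5 higher (all genes 31.4%) and 2 lower (all genes 32.2%). Slc25a11, the oxoglutarate/malate carrier of the malate-aspartate shuttle, had 5657, 5853 and 5922 normalized counts in Input and 9471, 7727 and 8820.2 in IP, and it rose by 0.57 (SE 0.09, adjusted p 1.23e-04). This call was lost at 0.09 with libraries divided by their totals and at 0.11 with the length trend removed. Slc25a1, which exports citrate for lipid synthesis, fell by 0.46 (SE 0.10, adjusted p 1.66e-03), and did not pass without pool 3 (-0.35). It fell by 0.94 with libraries divided by their totals and by 0.95 with the length trend removed. Slc25a10, the dicarboxylate carrier, had a log2 fold change of 0.24 and Slc25a20, the carnitine/acylcarnitine carrier needed for the oxidation of long-chain fatty acids, one of -0.11, and neither passed the test, although Slc25a10 rose by 0.35 without the IP library of pool 2 and by 0.40 without pool 2. Slc25a20 fell by 0.59 with libraries divided by their totals and by 0.53 with the length trend removed. Slc25a21, the oxoadipate carrier (chr12:56712634-57197472, minus strand), had 23.8, 24.4 and 29.2 in Input and 0, 7.24 and 2.49 in IP. The IP values stood for a few reads at most, because 1 read was worth 2.23 to 2.30 normalized counts there. Slc25a21 passed the filter on low values through its Input libraries alone and so had to differ. Its log2 fold change was -3.12 (SE 0.83, adjusted p 5.47e-03), and it shrank to -1.99 when 5 was added to each value in place of 1.

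All 8 tested amino acid carriers passed the test, 4 higher (all genes 31.4%) and 4 lower (all genes 32.2%). With libraries divided by their totals, Slc25a38 alone of the 4 stayed higher. The largest change was that of Slc25a18, a mitochondrial glutamate carrier (chr6:120773578-120794336, plus strand), with 677, 764 and 704 normalized counts in Input and 147, 197 and 159 in IP. It fell by 2.09 on the log2 scale (SE 0.15, adjusted p 1.66e-07), and it fell in every alternative. Its related carrier Slc25a22, which also moves glutamate into the matrix (chr7:141429744-141437892, minus strand), had 7867, 7202 and 7034 in Input and 11448, 10382 and 11456 in IP. Slc25a22 rose by 0.59 (SE 0.08, adjusted p 5.42e-05), or stood at 0.11 without passing when libraries were divided by their totals. On the deposited scale the 8 astrocyte markers had a median log2 fold change of -2.49 and the 16 neuron markers one of 0.53. The part of these markers' cell types in the values of Slc25a18 and Slc25a22 was not tested.

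The aspartate/glutamate carriers of the malate-aspartate shuttle also diverged. Slc25a12, known as aralar, had 3391, 3209 and 3399 normalized counts in Input and 3802, 3972 and 3938 in IP, and it rose by 0.23 (SE 0.08, adjusted p 2.46e-02), which turned to -0.25 with libraries divided by their totals and was 0.75 with the length trend removed, both past the test. Its call was lost at 0.19 to 0.24 without any of the Input libraries, the IP library of pool 3, or the whole of pool 2 or 3. Slc25a13, known as citrin and the main form of the liver, had 100.0, 96.9 and 123 in Input and 43.7, 38.8 and 74.7 in IP. It fell by 1.06 (SE 0.30, adjusted p 7.64e-03), a call that was lost without pool 2 (-0.94). Per kb of transcript Slc25a12 stood at 525 ± 16.9 in Input and 615 ± 14.2 in IP, and Slc25a13 at 34.2 ± 4.56 and 16.8 ± 6.23 (SD, n = 3).

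Of the other amino acid carriers, Slc25a38, which imports glycine for the first step of heme synthesis (chr9:120110374-120124504, plus strand), had 641, 627 and 659 normalized counts in Input and 1443, 1112 and 1189 in IP. It rose by 0.95 (SE 0.12, adjusted p 1.49e-05), and by 0.47 with libraries divided by their totals or 0.53 with the length trend removed. Slc25a15, the ornithine carrier of the urea cycle, had 284, 329 and 291 in Input and 129, 139 and 167 in IP. It fell by 1.06 (SE 0.17, adjusted p 1.65e-04), with no overlap between the groups. Slc25a29, a carrier of basic amino acids, rose by 0.46 (SE 0.11), or stood at -0.022 with libraries divided by their totals at 0.13 with the length trend removed and at 0.38 without pool 3, where it did not pass. Slc25a44, a carrier of branched-chain amino acids, fell by 0.25 (SE 0.08), or stood at 0.021 with the trend on transcript length removed. It did not pass, at -0.26 to -0.22, without the Input library of pool 2 or 3 or without any whole pool.

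Among the carriers of cofactors and pyrimidine nucleotides 5 of 9 rose (all genes 31.4%) and 2 fell (all genes 32.2%), while with libraries divided by their totals Slc25a17 alone rose. Slc25a17, the peroxisomal carrier of coenzyme A and related cofactors (chr15:81318911-81360812, minus strand), had 1130.2, 1341 and 1046 normalized counts in Input and 2558, 2570.1 and 2229 in IP. Its log2 fold change of 1.07 was the highest of the family on the deposited scale (SE 0.11, adjusted p 3.38e-06), and it was 0.59 with libraries divided by their totals and 0.61 with the length trend removed. Slc25a26, which brings S-adenosylmethionine into the matrix, rose by 0.75 (SE 0.15), and Slc25a32, which carries folate or FAD, by 0.55 (SE 0.21). With libraries divided by their totals Slc25a26 and Slc25a32 did not pass, at 0.27 and 0.075, and with the length trend removed they rose by 0.40 and 1.07. Slc25a32 also did not pass, at 0.35 to 0.68, without the Input library of pool 1 or 2, the IP library of pool 1 or 3, or any whole pool. Slc25a42, a coenzyme A carrier, had 861, 930.0 and 795 in Input and 724, 697 and 686 in IP and fell by 0.29 (SE 0.11, adjusted p 3.05e-02). It did not pass, at -0.33 to -0.23, without the Input library of pool 1 or 2, the IP library of pool 3, or any whole pool. Slc25a42 also did not pass with the length trend removed. Slc25a16, which has also been linked to coenzyme A, had 1131, 1119.8 and 971 in Input and 874, 893 and 1037 in IP. Its groups overlapped and its log2 fold change was -0.20 (95% interval -0.44 to 0.04). Slc25a16 passed on the lower side with libraries divided by their totals, scaled to the upper quartile or scaled on the neuron markers. Its lowest value over the alternatives was -0.70. Slc25a51, the NAD carrier, stood at 0.01 (interval -0.18 to 0.21), but passed the test at -0.47 with libraries divided by their totals and at 0.44 with the length trend removed.

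The pyrimidine nucleotide carriers Slc25a33 and Slc25a36, which supply the matrix with precursors of mitochondrial DNA and RNA, went apart. Slc25a33 had 1539, 1628 and 1566 normalized counts in Input and 2281, 1886 and 2129 in IP, and it rose by 0.41 (SE 0.10, adjusted p 2.65e-03), or stood at -0.075 with libraries divided by their totals and at 0.0385 with the length trend removed, where it did not pass. Slc25a36 (chr9:97074961-97111157, minus strand) had 197, 191 and 240.5 in Input and 53.2, 107 and 123 in IP. It fell by 1.22 (SE 0.29, adjusted p 2.40e-03), and stood at -0.73 with the length trend removed. Its lowest IP library was that of pool 1. Of its 50-base windows 11.8% also occur in Gm13217, a name that is not among those in the files.

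Of the 4 iron and glutathione carriers 1 rose (all genes 31.4%) and 1 fell (all genes 32.2%). Slc25a37, mitoferrin 1, which supplies iron for heme in developing red cells (chr14:69241848-69285112, minus strand), had 103, 139 and 148 normalized counts in Input and 59.3, 41.3 and 33.7 in IP. It fell by 1.53 (SE 0.29, adjusted p 5.11e-04). Slc25a28, mitoferrin 2, which serves iron import in other cells, had 594, 674 and 612 in Input and 719.7, 681 and 711 in IP. All its IP libraries were above its Input libraries, but the log2 fold change of 0.17 did not pass the test (95% interval -0.07 to 0.41). Slc25a28 passed on the lower side, at -0.31 with libraries divided by their totals and at -0.40 with the length trend removed. Of 4 erythroid markers tested 2 fell, the summed level of the list went from 4457 to 5069 in Input to 865 to 1237 in IP, and Hbb-bs was at 0 in every library. The part of red cells in the value of Slc25a37 was not tested. Slc25a39, a glutathione carrier, had 3561, 3750.3 and 3951 in Input and 6699, 5117 and 6219 in IP and rose by 0.67 (SE 0.10, adjusted p 1.03e-04). It did not pass with libraries divided by their totals or with the length trend removed, at 0.19 in each. Its relative Slc25a40 had 221, 201 and 185 in Input and 149, 170.4 and 148 in IP. Its groups did not overlap, and its log2 fold change was -0.37 (interval -0.76 to 0.01). Slc25a40 passed on the lower side with libraries divided by their totals, scaled to the upper quartile or scaled on the neuron markers. Its lowest value over the alternatives was -0.87.

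No member of the outer membrane and unassigned group rose (all genes 31.4%), and 3 of its 7 tested members fell (all genes 32.2%). Slc25a34, a carrier without an assigned substrate (chr4:141618824-141623821, minus strand), had 220.4, 279 and 121 normalized counts in Input and 6.69, 16.2 and 26.5 in IP. Its log2 fold change of -3.67 was the lowest of the family (SE 0.46, adjusted p 1.70e-05), and it ranged from -4.44 to -3.09 over the alternatives. Input and IP of this gene varied more between pools than most members did, and pool 3 was lowest in Input and highest in IP. Slc25a45 had an SE of 0.33 and fell by 0.88 (adjusted p 3.43e-02), with 117, 144 and 57.5 in Input and 50.1, 52.4 and 57.7 in IP. Pool 3 showed almost no difference between its libraries for this gene, whose call was lost at -0.94 to -0.60 without the Input library of pool 1 or 2, any IP library, or the whole of pool 1 or 2. Slc25a46 fell by 0.34 (SE 0.11), or stood at 0.075 with the trend on transcript length removed, and did not pass, at -0.37 to -0.24, without the Input library of pool 3, the IP library of pool 1, or the whole of pool 1 or 2. The values of Slc25a47, Slc25a35 and Slc25a53 were 0.30, -0.22 and -0.23, with SEs of 0.24, 0.30 and 0.19. Slc25a53 passed on the lower side with libraries divided by their totals, scaled to the upper quartile or scaled on the neuron markers. Its lowest value over the alternatives was -0.73. Slc25a43 had 12.3, 9.23 and 10.2 in Input and 11.2, 0 and 11.2 in IP, and its value of -1.12 (SE 0.99, interval -3.26 to 1.01) became 0.079 without the IP library of pool 2.

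The 5 members that were not tested were low in every library. The highest value in any library was 12.2 for Slc25a48, 5.25 for Slc25a41, 3.70 for Slc25a31 and 2.29 for Slc25a2, and Slc25a54 was at 0 throughout. Slc25a31 is the ADP/ATP translocase of the male germ line, Slc25a41 an ATP-Mg/phosphate carrier that lacks the calcium-binding part, and Slc25a2 a second ornithine carrier. Of the tested members 39 reached 10 normalized counts in every library, and when all genes were held to that limit, 15 of these rose (all genes 35%) and 11 fell (all genes 31.3%).

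Levels were compared between genes after division by transcript length, as normalized counts per kb. Slc25a4 was the highest of the family in both fractions, at 13892 ± 75.6 per kb in Input and 28982 ± 2234 in IP (mean ± SD, n = 3). It was followed by Slc25a5 with 10389.8 ± 614 and 20755 ± 2294, and by Slc25a3 with 8483 ± 68.0 and 14830.3 ± 1114. The ranks of Slc25a11, Slc25a22 and Slc25a39 were 4, 5 and 6, in Input as in IP. Their levels per kb were 3396 ± 80.4, 2621 ± 157 and 2228 ± 116 in Input and 5069 ± 515, 3947 ± 220 and 3568 ± 482 in IP, where the last pair did not differ beyond its spread. The lower end of the tested members was formed in IP by Slc25a24 at 5.75 ± 1.98 and Slc25a21 at 1.24 ± 1.41. Slc25a3, Slc25a4 and Slc25a5 together made up 50.9% to 51.9% of all normalized counts of the family in Input and 62.4% to 64.4% in IP. The family as a whole took 0.606% to 0.613% of the library total in Input and 0.677% to 0.713% in IP.

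**Figure D3:**
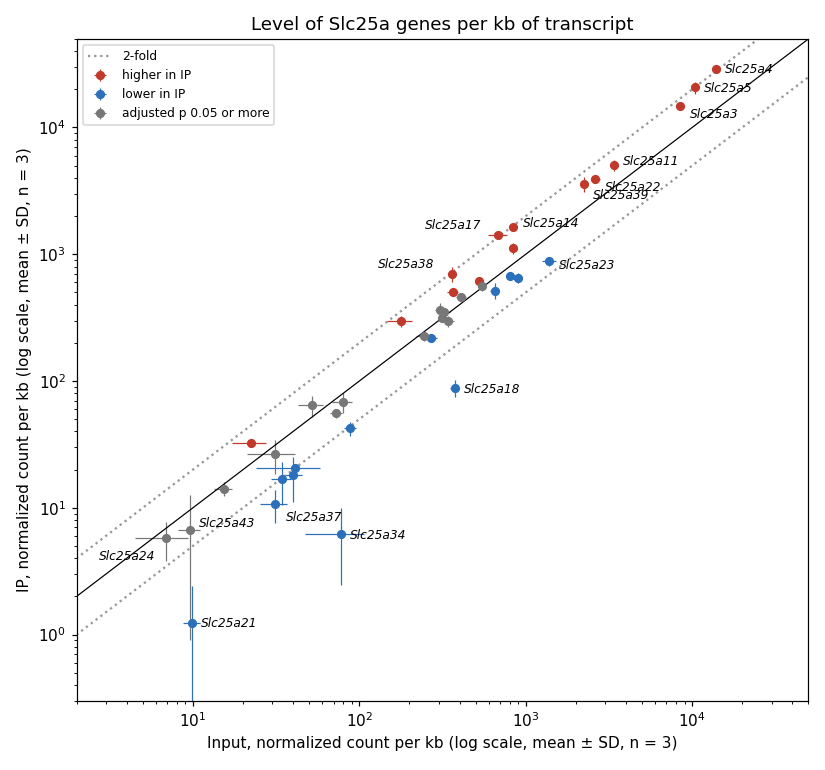
Mean level of the members reported in Input (x axis) and IP (y axis), as normalized counts per kb of transcript on log scales, with bars for ± SD of 3 libraries. The line marks equal levels and the dotted lines 2-fold. The abundant members Slc25a4, Slc25a5 and Slc25a3 lie above the line together with the next 3, while Slc25a18, Slc25a34 and Slc25a21 lie below the lower dotted line. The lower bar of Slc25a21 runs off the axis because its SD exceeds its mean.

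The changes went along with the level of a member and with its length. Across the 42 members the log2 fold change correlated with the mean level on the log2 scale at r = 0.66 (rho = 0.64), against r = 0.44 across all genes. With log2 transcript length it correlated at r = -0.24 (rho = -0.39), against r = -0.39 across 14732 genes with a length. These genes share the 6 libraries and are not independent replicates. The level was the mean over all 6 libraries, IP included, so it shares values with the log2 fold change. Slc25a21, low and with a strongly negative value, is among the 42 although it passed the filter through its Input libraries alone. How far these 2 points raise the correlation was not tested. The median transcript length was 1887 bases in the 15 higher members, 3196 in the 13 lower ones and 3020 in the 14 that did not pass. The median Input value was 1785 normalized counts in the higher members, 301 in the lower and 344 in the others. With the length trend of each library removed, 13 members rose (all genes 31%), and Slc25a32 alone was over 2-fold higher at 1.07 (all genes 7.05%).

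Members that carry like substrates were then compared within each library as a log2 ratio, in 11 pairs. Each ratio was tested between IP and Input with a two-sided exact permutation test over the 6 libraries, whose smallest possible p is 0.1, so that no pair could pass 0.05. In 8 pairs the 3 IP ratios did not overlap the 3 Input ratios (exact permutation p = 0.1, adjusted over the pairs 0.138). The share of all gene pairs that lie apart in this way was not determined. Among single genes, every IP library lay above every Input library in 34.2% and below in 35.4%. The largest shift was in Slc25a22 over Slc25a18, whose log2 ratio was 3.54, 3.24 and 3.32 in Input and 6.27, 5.71 and 6.16 in IP, a difference of 2.68 (SE 0.19). Per kb of transcript Slc25a22 stood at 2621 ± 157 and Slc25a18 at 374 ± 23.2 in Input, and at 3947 ± 220 and 87.9 ± 13.7 in IP (SD, n = 3). The ratio of Slc25a28 to Slc25a37 shifted by 1.70 (SE 0.26), that of Slc25a33 to Slc25a36 by 1.63 (SE 0.44) and that of Slc25a12 to Slc25a13 by 1.29 (SE 0.30). Smaller shifts were seen for Slc25a14 over Slc25a30 (1.10, SE 0.15), Slc25a39 over Slc25a40 (1.05, SE 0.21), Slc25a27 over Slc25a14 (-0.87, SE 0.05) and Slc25a23 over Slc25a25 (-0.69, SE 0.13). With the length trend removed, several of these shifts were smaller but kept their sign, at 0.75 for Slc25a28 over Slc25a37, whose groups then overlapped, 0.77 for Slc25a33 over Slc25a36, 0.42 for Slc25a14 over Slc25a30, 0.56 for Slc25a39 over Slc25a40 and -0.41 for Slc25a27 over Slc25a14, while Slc25a22 over Slc25a18 stood at 3.06.

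The ratio of the ADP/ATP translocases did not separate the fractions on the deposited values. Slc25a4 over Slc25a5 had log2 ratios of 1.16, 1.02 and 0.99 in Input and 1.11, 1.20 and 1.05 in IP, a difference of 0.06 (SE 0.07, exact permutation p = 0.4, adjusted 0.44). That difference was 0.48 with the length trend removed, where the groups no longer overlapped (exact permutation p = 0.1), and the count of Slc25a5 is uncertain as given above. The ratios overlapped also for Slc25a23 over Slc25a24 (-0.41, SE 0.42, exact permutation p = 0.4) and Slc25a16 over Slc25a42 (0.09, SE 0.10, exact permutation p = 0.6). These p-values do not show that the ratios were equal. With ratios paired within each pool, the exact sign-flip test gave p = 0.25 for the 8 pairs without overlap, the smallest it allows with 3 pools.

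**Figure D4:**
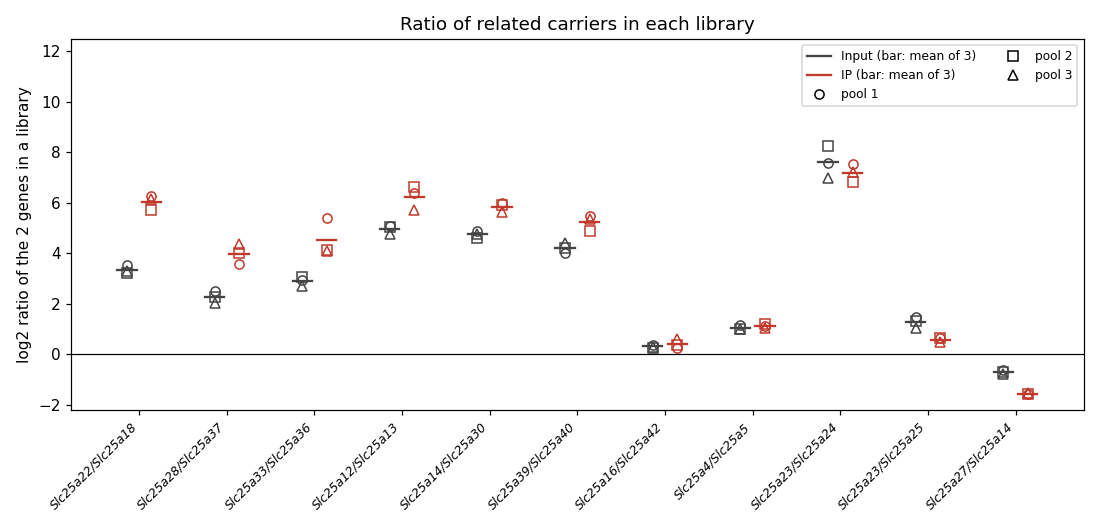
Log2 ratio of the named pair of carriers in each library (y axis, log2 of value + 1), Input in grey and IP in red, with symbols for the pools and bars for the mean of 3. The IP ratios lie apart from the Input ratios in 8 of the 11 pairs, by the widest margin in Slc25a22 over Slc25a18. They overlap in Slc25a16 over Slc25a42, Slc25a4 over Slc25a5 and Slc25a23 over Slc25a24. How often other gene pairs lie apart was not determined.

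Other genes of mitochondrial transport were read from the same fit. Of 37 tested, 16 rose (all genes 31.4%), 11 fell (all genes 32.2%) and 10 did not pass, with a median log2 fold change of 0.21. With libraries divided by their totals, 10 rose (all genes 17.3%) and 17 fell (all genes 53.1%). The subunits of the pyruvate carrier rose, Mpc1 by 1.26 (SE 0.10) and Mpc2 by 1.55 (SE 0.12), or by 0.28 and 0.62 with the length trend removed. So did the outer membrane channels, Vdac2 by 0.71 (SE 0.08) and Vdac3 by 0.95 (SE 0.10), and Vdac1 by 0.46 (SE 0.12), or -0.025 with libraries divided by their totals and 0.34 without pool 3, where it did not pass. With the length trend removed Vdac2 and Vdac3 rose by 0.38 and 0.31, and Vdac2 did not pass, at 0.21, when scaled on the neuron markers. Smdt1, a subunit of the calcium uniporter, rose by 1.47 (SE 0.12), or by 0.25 with the length trend removed. Among genes with the carrier fold but another symbol, Mtch1 rose by 1.47 (SE 0.09), whereas the uncoupling proteins Ucp2 and Ucp3 fell by 1.73 (SE 0.25) and 2.67 (SE 0.49). Ucp3 was low in IP, at 6.81, 25.4 and 8.95 normalized counts, and passed the filter on low values through its Input libraries. Its value ranged from -3.20 to -2.31 over the alternatives. Ucp2 is known in brain from microglia, and all 7 microglia markers fell, with a part in its value that was not tested.

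Enzymes that work with the carriers gave mixed values. Of the malate-aspartate shuttle, Mdh1 rose by 0.92 (SE 0.09) and Mdh2 by 1.04 (SE 0.09), or by 0.44 and 0.56 with libraries divided by their totals and by 0.67 and 0.42 with the length trend removed. Got1 rose by 0.44 (SE 0.08), or stood at -0.044 with libraries divided by their totals, and Got2 had 0.06 (SE 0.08). Gpd2, the mitochondrial enzyme of the glycerol phosphate shuttle, fell by 0.81 (SE 0.12), and stood at -0.30 with the length trend removed. Cpt1a, which makes the acylcarnitines that Slc25a20 carries, fell by 4.41 (SE 0.65). Cpt1a was low in IP, at 13.7, 36.8 and 2.25 normalized counts, and its value ranged from -5.28 to -3.35 over the alternatives. Its neuronal relative Cpt1c rose by 0.47 (SE 0.11), or stood at -0.01 with libraries divided by their totals. Slc25a20 itself had a value of -0.11 (95% interval -0.41 to 0.19).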

How the data were processed

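The deposited signal values, 1 for each gene and library, are reads that the authors counted and scaled with DESeq2, on a linear scale. STAR, DESeq2 and mm10 are named in the submitters' processing notes. The study's methods instead name TopHat and Cufflinks. Which program counted the reads in these files, and with which strand setting, was not given in the sources used here. Of 24972 entries per file, 26 carry a date in place of a symbol and were left out (0.188% to 0.32% of a library's total). Low values were whole multiples of the value of 1 read, to within 0.02 reads, in 33.2% to 64.7% of cases, so count models were not used.

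Values at 10 or more in at least 3 libraries were tested on log2(value + 1) with limma 3.58.1 (R 4.3.3), with a mean-variance trend and Benjamini-Hochberg adjustment. In a simulation of IP against Input over 14859 genes, 90% of changes of 1 on the log2 scale and 100% of changes of 2 were found in either direction. Of 196 calls 6 were false. Changes were planted only in genes well above the filter on low values, with normally distributed noise taken from the spread of the Input libraries. These rates therefore do not cover the low members or a larger spread in IP. The pools pair Input with IP, since each pool's RNA was split, and within a pool the libraries' deviations from their groups correlated at 0.109, 0.095 and 0.099. The study's methods name no pairing term, so the block by pool was an alternative. Others were 3 scalings, 3 filters, 2 pseudocounts, removal of the length trend and leaving out each library or pool.

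The members and lists were chosen with earlier results of these data known. The tested members are named, except that 1 of them enters the counts and medians and is not reported here. Values in every library are given for members past 2-fold, for the 6 highest per kb, for members that did not pass with an SE over 0.3 and for the compared pairs, and also for Slc25a38 and Slc25a45, which were chosen after their values were seen. Coordinates and transcript lengths are from GENCODE M21, and promoters from RefSeq on GRCm38.p6. Exons of 10 members overlap a gene on the opposite strand, and without a known strand setting their reads cannot be told apart. Among them are Slc25a10, Slc25a21, Slc25a23, Slc25a25, Slc25a26, Slc25a33, Slc25a35, Slc25a37 and Slc25a46. None of the alternatives bears on this limit, also where a call was kept in each of them. Python 3.11.15 and matplotlib 3.10.9 were used for tables and figures.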

Additional observations from a re-analysis of the deposited data

How the results depend on the processing

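The block by pool changed no call of the 42 members (15 higher and 13 lower, as without it). With the block, 31.8% of all genes rose and 33.2% fell. With libraries divided by their totals, or scaled on the neuron markers, 6 members rose (all genes 17.3% or 15.7%) and 22 fell (all genes 53.1% or 52.3%). None was over 2-fold higher (0, all genes 4.52% or 4.39%), likewise with the upper quartile (all genes 8.3%). The other transport genes gave 10 or 9 higher and 17 or 18 lower. The log2 fold changes that turned negative under these scalings were -0.25 and -0.27 for Slc25a12, -0.45 and -0.46 for Slc25a25, -0.36 and -0.38 for Slc25a27, -0.31 and -0.33 for Slc25a28, -0.022 and -0.038 for Slc25a29, -0.075 and -0.091 for Slc25a33, -0.47 and -0.49 for Slc25a51, -0.025 and -0.041 for Vdac1, -0.044 and -0.060 for Got1, -0.42 and -0.44 for Got2, and -0.01 and -0.026 for Cpt1c. These scalings moved all genes alike, with a median of -0.54 and -0.55, and the members' median stayed 0.01 above it. With the length trend removed, with or without the block by pool, 1 member was over 2-fold higher (all genes 7.02% or 7.05%). In the same settings 4 members were over 2-fold lower (all genes 14.1% or 13.8%). Slc25a28 then stood at -0.40, Slc25a44 at 0.021 and Slc25a46 at 0.075. Leaving out each library or pool in turn gave 12 to 16 members higher and 8 to 12 lower, 2 to 5 over 2-fold higher and 4 to 8 over 2-fold lower (4 to 7 for single libraries), and 14 to 17 higher and 9 to 11 lower among the other transport genes. The extremes included 8 lower without pool 2 (all genes 26.9%) and 4 over 2-fold lower without the IP library of pool 1 (all genes 16.1%). On the higher side, 5 were over 2-fold without pool 2 or its IP library (all genes 13.8% and 14%). Without the Input library of pool 2, 4 were (all genes 12.7%). Without the Input library of pool 2, 13 members rose (all genes 29%) and 10 fell (all genes 27%). Without the IP library of pool 1, 14 rose (all genes 29.9%) and 11 fell (all genes 30.5%). Without the IP library of pool 2, 16 rose (all genes 31.3%) and 12 fell (all genes 32.1%). Without pool 2, 14 rose (all genes 29%). Shares of all genes for the rest of these ranges are not given, and the ranges are not read as a result about the members. Without pool 2 the log2 ratio Slc25a23/Slc25a24 shifted by 0.10, and without pool 3 Slc25a16/Slc25a42 by -0.016. The cause of these changes was not tested. Depth limits the lowest members most, since 1 read was worth about 2 normalized counts and a change near 0 is understated on the scale used.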
